A study of Sus scrofa with 4 samples.

Results

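Eph receptors and ephrins were examined in sorted pig epidermal cells through 10 genes named as those of epithelia, taken by gene name from the table of raw counts, which holds 29837 named genes. They are the receptor genes EPHA1, EPHA2, EPHA4, EPHB2, EPHB3, EPHB4 and EPHB6 and the ligand genes EFNA1, EFNB1 and EFNB2, and all 10 were found. Juvenile pigs 88R and 95R each gave 1 LGR5-high library, from cells sorted as high in GFP, and 1 LGR5-negative library, from cells sorted as negative for GFP. Both populations of both pigs carried the same transgene, H2B-GFP knocked into a single LGR5 allele and driven by the LGR5 promoter, so the sort reads the GFP made from that promoter. Cells with low GFP were not analysed here. The line began from clonal edited fetal fibroblasts by somatic cell nuclear transfer, and whether these pigs are cloned founders or their progeny is not given in the sources used here. Library totals lay between 30696803 and 32463362 counts. The labels call the cells epidermal, and KRT5, a keratin of basal keratinocytes, had between 23651 and 29543 CPM (counts relative to library depth, with depths scaled by edgeR's TMM factors) in all 4 libraries. LGR5 had 132 and 188 CPM in LGR5-high and 1.26 and 3.61 CPM in LGR5-negative, here and below in the order of pigs 88R and 95R.

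Eph receptors are receptor tyrosine kinases whose ligands, the ephrins, stay attached to the membrane of the neighbouring cell, so that signalling needs cell contact. EphA receptors mostly bind ephrin-A ligands, which are held by a lipid anchor, and EphB receptors mostly bind ephrin-B ligands, which span the membrane. EPHA4 is an exception that also binds ephrin-B ligands. Signals run forward into the cell with the receptor and in reverse into the cell with the ephrin, and are known for adhesion, repulsion and the boundaries between cell compartments. In stratified epithelia EPHA2 and EFNA1 are linked to keratinocyte differentiation, and in the intestinal crypt, another LGR5 stem cell niche, EPHB2 and EPHB3 are targets of WNT signalling that position cells.

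The populations were compared by the quasi-likelihood test of edgeR, and a gene was called where its p-value, adjusted by Benjamini-Hochberg over all 15980 genes tested, was under 0.05. By this rule 1 of the 10 genes was higher in LGR5-high, 2 were lower and 7 were not called. All 10 passed the filter on low counts. EPHB2 was the higher gene, and EPHA2 and EFNB2 were the lower ones. Among all genes tested, 22.7% were higher and 22.0% lower. The median log2 fold change of the 10 genes was 0.16, beside 0.02 for all tested genes, and the median size of the change, regardless of direction, was 0.36 beside 0.47. At least a 2-fold change was estimated for 2 of the 10, EPHA2 and EPHB2, and for 27.4% of all genes. Each pig gave both populations, and with the pig as a replicate block 5 of the 10 genes were higher and 3 lower, beside 28.5% and 27.2% of all genes. Without regard to any test, both LGR5-high libraries lay above both LGR5-negative libraries for 5 of the 10 genes and below them for 3, beside 39.2% and 37.4% of all genes. Student's t-test of log2 values, the kind of test named in the study's methods, called 0 of the 10 in either direction. Of all 15980 genes it called 544 higher and 502 lower. At an unadjusted p-value under 0.05, 1 of the 10 was higher and 2 were lower by this t-test. In bulk libraries such as these, fewer cells of a type and less RNA per cell cannot be told apart.

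**Figure D1:**
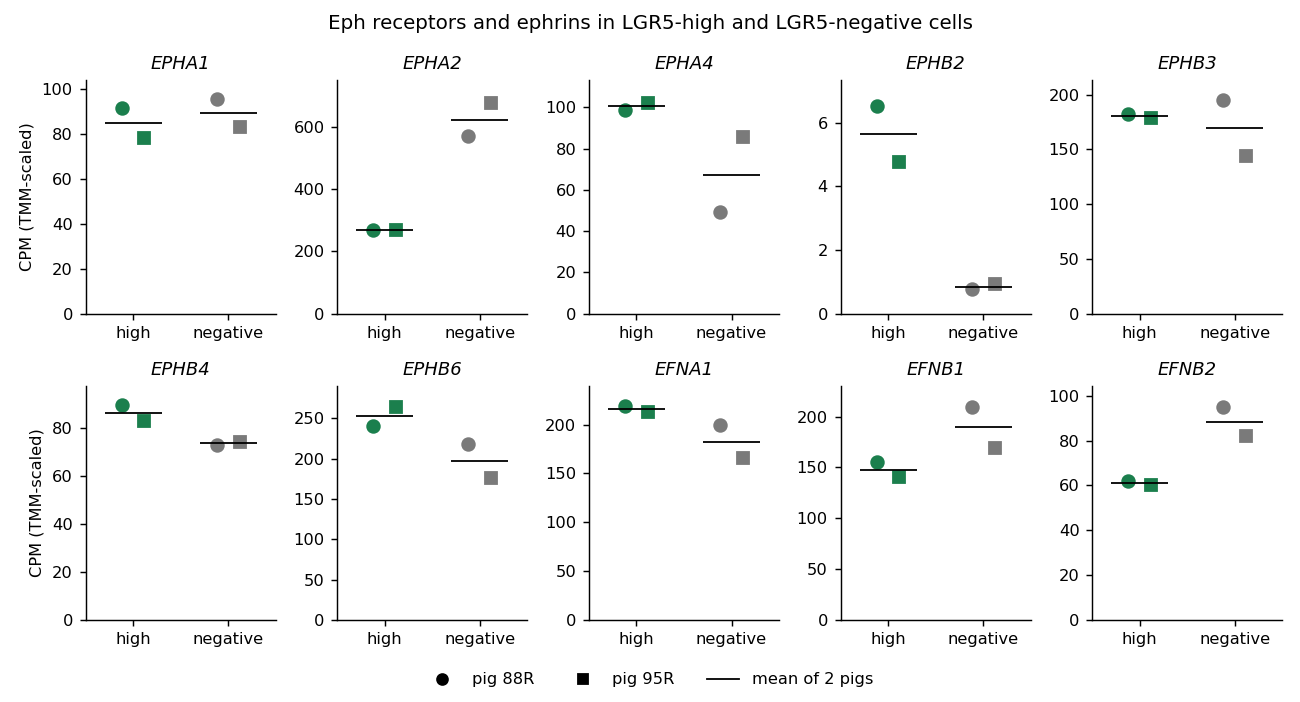
CPM, scaled by TMM factors, of the 10 Eph receptor and ephrin genes in each library, on linear axes that start at 0 and differ between panels, with the mean of the 2 pigs as a bar. EPHA2 sits at 268 and 269.6 CPM in LGR5-high and at 569 and 674 CPM in LGR5-negative, EPHB2 shows the opposite order at levels under 7 CPM, and the points of EPHA1 and EPHB3 overlap between the populations.

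Among the EphA receptors, EPHA2 was lower in LGR5-high. Its level was 268 and 269.6 CPM in LGR5-high and 569 and 674 CPM in LGR5-negative, in pigs 88R and 95R. The groups did not overlap, and the LGR5-high libraries of the 2 pigs were nearly equal while the LGR5-negative libraries differed 1.19-fold. EPHA2 was 2.31-fold higher in LGR5-negative, with a log2 fold change of -1.21 (standard error 0.106, 95% interval -1.47 to -0.95, edgeR adjusted p = 5.46e-04). The log2 differences within pigs 88R and 95R were -1.08 and -1.32. Of all tested genes, 8.28% had a lower log2 fold change than EPHA2. The 14 alternatives gave EPHA2 adjusted p-values from 1.88e-25 to 0.0648, and only Student's t-test did not call it. Markers of suprabasal keratinocytes moved the same way as EPHA2. Of the 9 suprabasal markers tested 7 were lower in LGR5-high and 0 were higher, beside 22.0% and 22.7% of all genes. Their summed level was between 6114 and 6687 CPM in LGR5-high and between 57743 and 66888 CPM in LGR5-negative. None of the 9 was at 0 in any library. Of 7 basal keratinocyte markers 4 were lower and 0 were higher. These 7 summed to between 30703 and 33794 CPM in LGR5-high and between 36196 and 38696 CPM in LGR5-negative. The part of these cells in the difference of EPHA2 was not tested.

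EPHA4, a receptor that binds ligands of both classes, had 98.6 and 102 CPM in LGR5-high and 49.1 and 85.5 CPM in LGR5-negative. Both LGR5-high values were above both LGR5-negative values, and the low library was LGR5-negative of pig 88R. Its log2 fold change was 0.58 (standard error 0.246, 95% interval -0.03 to 1.18, edgeR adjusted p = 0.107). It was 1.01 within pig 88R and 0.26 within pig 95R. Under the replicate block the log2 fold change was 0.63 (adjusted p = 5.08e-04), and the 14 alternatives gave adjusted p-values from 5.08e-04 to 0.356. EPHA4 was not called in the main test, and its estimate varied most with the LGR5-negative libraries. It was 0.60 without LGR5-high of pig 88R and 0.56 without LGR5-high of pig 95R. Without LGR5-negative of pig 95R the log2 fold change was 1.02 (adjusted p = 0.00122), and without LGR5-negative of pig 88R it was 0.22 (adjusted p = 0.179). In LGR5-negative the 2 pigs differed 1.74-fold in EPHA4, more than 91.5% of all tested genes did, beside 1.04-fold in LGR5-high. The same LGR5-negative library of pig 95R held more LGR5 than that of pig 88R, as given above, and more melanocyte RNA, with a summed level of 6 melanocyte markers of 82.7 CPM in pig 88R and 255.5 CPM in pig 95R. In LGR5-high the same 6 markers summed to 61.9 CPM in each pig, and none was at 0 in any library. Of the 6, 4 were lower in LGR5-high and 0 higher, beside 22.0% and 22.7% of all genes. MLANA, among the 4, passed the filter only through LGR5-negative. The part of melanocytes in the values of EPHA4 was not tested.

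EPHA1, whose ligands are ephrin-A proteins, had 91.8 and 78.3 CPM in LGR5-high and 95.7 and 83.3 CPM in LGR5-negative. The groups overlapped, and pig 88R was above pig 95R in both populations. The log2 fold change was -0.07 (95% interval -0.36 to 0.21, adjusted p = 0.638). Its sign depended on the setting, with -0.20 to 0.04 when each library was left out in turn, among them 0.04 without LGR5-high of pig 95R and 0.02 without LGR5-negative of pig 88R.

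Among the EphB receptors, EPHB2 was the gene with the largest change of the 10 and the lowest counts. It had 224 and 157 counts in LGR5-high and 22 and 28 counts in LGR5-negative, which are 6.51 and 4.75 CPM against 0.772 and 0.926 CPM. The groups did not overlap, and both LGR5-negative values lay above the smallest measurable signal, taken as 3 counts, or 0.0924 to 0.0977 CPM by library size. EPHB2 was 6.60-fold higher in LGR5-high, with a log2 fold change of 2.72 (standard error 0.295, 95% interval 1.99 to 3.45, edgeR adjusted p = 0.00114). Within pigs 88R and 95R it was 2.98 and 2.28, and 5.61% of all tested genes had a higher log2 fold change. The 14 alternatives gave EPHB2 adjusted p-values from 3.80e-09 to 0.0680, and only Student's t-test did not call it. The annotation of Sscrofa11.1 by RefSeq places the gene LOC110261112 over part of EPHB2, and that gene had at most 5 counts in any library.

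EPHB3, which in the crypt is paired with EPHB2 as a WNT target, did not share its difference. It had 182 and 179 CPM in LGR5-high and 195 and 144 CPM in LGR5-negative. The LGR5-high values lay between the LGR5-negative values, and the log2 fold change was 0.09 (95% interval -0.28 to 0.45, adjusted p = 0.651). It was -0.10 within pig 88R and 0.31 within pig 95R. Without LGR5-negative of pig 95R it was -0.12, and without LGR5-negative of pig 88R it was 0.32. The ratio of EPHB2 counts to EPHB3 counts within a library does not depend on the scaling between libraries. It was 9.05 times higher in LGR5-high than in LGR5-negative in pig 88R and 4.13 times higher in pig 95R.

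EPHB4, the receptor that marks veins in blood vessels, had 89.7 and 83.0 CPM in LGR5-high and 73.1 and 74.4 CPM in LGR5-negative. The groups did not overlap, yet the difference was small, with a log2 fold change of 0.23 (95% interval 0.03 to 0.43, edgeR adjusted p = 0.0683). Under the replicate block the estimate was 0.23 (adjusted p = 0.0439), and the 14 alternatives gave adjusted p-values from 0.00789 to 0.284.

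EPHB6, a receptor known for a kinase domain without catalytic activity, had 241 and 265 CPM in LGR5-high and 218 and 176 CPM in LGR5-negative. Both LGR5-high values were above both LGR5-negative values, and the low library was LGR5-negative of pig 95R. The log2 fold change was 0.36 (95% interval 0.05 to 0.66, edgeR adjusted p = 0.0596). It was 0.14 within pig 88R and 0.59 within pig 95R. Under the replicate block the estimate was 0.36 (adjusted p = 0.00648), and the 14 alternatives gave adjusted p-values from 0.00648 to 0.258. Without LGR5-negative of pig 88R the log2 fold change was 0.51 (adjusted p = 0.0161), and EPHB6 was then called. In the RefSeq annotation EPHB6 overlaps TRPV6, which had at most 228 counts in a library against 5328 to 8743 for EPHB6, and the strand setting of the counting is not given in the sources used here.

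The ligand genes moved less than EPHA2 and EPHB2. EFNA1, a ligand of EPHA2, had 219 and 213 CPM in LGR5-high and 199 and 166 CPM in LGR5-negative. The groups did not overlap, and the LGR5-negative library of pig 95R was the low one. The log2 fold change was 0.25 (95% interval -0.02 to 0.51, edgeR adjusted p = 0.114), and under the replicate block the estimate was 0.25 (adjusted p = 0.0289). The 14 alternatives gave EFNA1 adjusted p-values from 0.0135 to 0.465, and without LGR5-negative of pig 88R, where the log2 fold change was 0.38, EFNA1 was called (adjusted p = 0.0359).

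EFNB2, the ligand of EPHB4 that marks arteries, was lower in LGR5-high. It had 62.1 and 60.3 CPM in LGR5-high and 95.0 and 81.9 CPM in LGR5-negative. The groups did not overlap, and EFNB2 was 1.44-fold higher in LGR5-negative, with a log2 fold change of -0.53 (standard error 0.0994, 95% interval -0.78 to -0.29, edgeR adjusted p = 0.00820). Within pigs 88R and 95R it was -0.61 and -0.44. The 14 alternatives gave EFNB2 adjusted p-values from 1.20e-04 to 0.112. EFNB2 lost its call under Student's t-test, and without LGR5-high of pig 95R it was -0.51 and not called (adjusted p = 0.0566). Endothelial markers were lower in LGR5-high as well. Of 9 endothelial markers tested 6 were lower and 1 was higher, beside 22.0% and 22.7% of all genes. But 4 of the 6 (CDH5, KDR, PLVAP and CLDN5) passed the filter only through LGR5-negative, which favoured a difference. The full list of 10 summed to between 11.4 and 13.5 CPM in LGR5-high and between 24.8 and 26.2 CPM in LGR5-negative, and EMCN, the marker not tested, was at 0 in LGR5-high of pig 95R. Their part in the differences of EFNB2 and EPHB4 was not tested.

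EFNB1, the other ephrin-B ligand of the 10, had 155 and 141 CPM in LGR5-high and 209.8 and 169 CPM in LGR5-negative. The groups did not overlap, and pig 88R was above pig 95R in both populations. The log2 fold change was -0.36 (95% interval -0.66 to -0.05, edgeR adjusted p = 0.0623), and under the replicate block the estimate was -0.35 (adjusted p = 0.00350). The 14 alternatives gave EFNB1 adjusted p-values from 0.00350 to 0.405, and without LGR5-negative of pig 95R it was -0.51 and called (adjusted p = 0.0151).

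Small differences of this size depended on how libraries were scaled. When libraries were scaled by their size alone, without TMM, the median change over the tested genes was 0.24 on the log2 scale instead of 0.02. The estimates of the 10 genes moved up with it, to 0.15 for EPHA1, 0.31 for EPHB3, 0.47 for EFNA1 and -0.13 for EFNB1. By this scaling 5 of the 10 genes were higher and 2 lower, beside 5473 and 2328 of all 15980 genes. In the main test 3632 of all genes were higher and 3508 lower. EPHA2 and EFNB2 kept a negative and EPHB2 a positive log2 fold change under each of the 4 scalings, with -1.21 to -0.99 for EPHA2, -0.54 to -0.31 for EFNB2 and 2.72 to 2.95 for EPHB2.

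**Figure D2:**
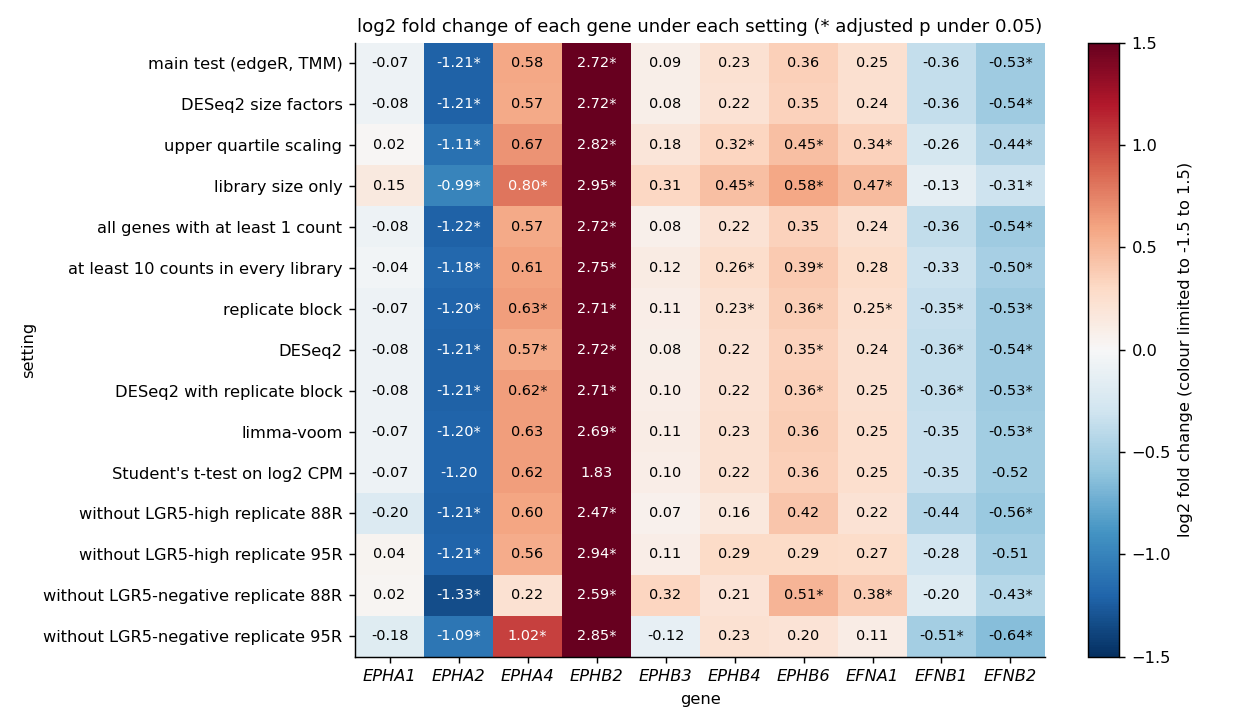
The log2 fold change, LGR5-high over LGR5-negative, of the 10 genes in the main test (top row) and under each of the 14 alternatives, in colour and as a number, with an asterisk where the adjusted p-value was under 0.05. EPHA2 and EPHB2 carry an asterisk in each row but that of Student's t-test, EPHA1 and EPHB3 in none, and EPHA4, EPHB4, EPHB6, EFNA1 and EFNB1 in some.

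Ratios between genes within a library are free of the scaling. These pairs were chosen after the values had been seen and have no test. The ratio of EPHA4 to EPHA2 counts was 0.367 and 0.379 in LGR5-high and 0.0863 and 0.127 in LGR5-negative. It was thus 4.26 times higher in LGR5-high in pig 88R and 2.99 times in pig 95R. The ratio of the ligand EFNA1 to its receptor EPHA2 was 2.33 and 3.22 times higher in LGR5-high. For the vascular pair, the ratio of EPHB4 to EFNB2 was 1.88 and 1.52 times higher in LGR5-high, and for EPHB6 to EFNB1 it was 1.49 and 1.80 times higher. In each of these pairs both pigs moved the same way. Levels of different genes were not compared as such, since no transcript lengths were used here.

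The genome holds further Eph receptor and ephrin genes beside the 10, and 12 of them were listed: EPHA3, EPHA5, EPHA6, EPHA7, EPHA8, EPHA10, EPHB1, EFNA2, EFNA3, EFNA4, EFNA5 and EFNB3. Of these 8 passed the filter on low counts, and 7 were higher and 1 was lower in LGR5-high, beside 22.7% and 22.0% of all genes tested. EPHA3 and EPHA7 passed the filter only through the population in which they were higher, so the filter favoured a difference in these 2. Under Student's t-test 0 of the 8 were called, beside 544 higher and 502 lower of all 15980 genes. At an unadjusted p-value under 0.05, this t-test had 5 of the 8 higher and 0 lower. EFNA5, an ephrin-A ligand that also binds EPHB2, had 209 and 289 CPM in LGR5-high and 9.54 and 12.1 CPM in LGR5-negative, a log2 fold change of 4.52 (standard error 0.213, edgeR adjusted p = 9.59e-05). EPHB1, an EphB receptor, had 69.3 and 81.7 CPM in LGR5-high and 1.26 and 4.20 CPM in LGR5-negative, a log2 fold change of 4.78 (standard error 0.464, adjusted p = 7.86e-04). None of the 10 epithelial genes had a change of this size. Several marker lists were higher in LGR5-high as well. The first is that of the outer root sheath and bulge, where the study itself locates LGR5 expression. Of its 8 tested markers, LGR5 included, 7 were higher. These 8 summed to between 1770 and 1806 CPM in LGR5-high and between 136 and 172 CPM in LGR5-negative. Smooth muscle markers, 3 of 4 higher, summed to between 116 and 124 CPM against 13.6 and 21.8 CPM, with DES at 0 in LGR5-high of pig 88R and LGR5-negative of pig 95R and CNN1 having passed the filter only through LGR5-high. Nerve and Schwann cell markers, 2 of 4 higher (NGFR and S100B) and 1 lower (SOX10), summed to between 59.3 and 79.1 CPM against 5.51 and 10.8 CPM. Their part in the differences of these genes was not tested. EFNB3, EPHA7, EFNA2, EFNA4 and EFNA3 had log2 fold changes of 2.75, 2.18, 0.91, 0.76 and 0.56. The calls of EPHA7 and EFNA4 were lost without LGR5-high of pig 95R, where the log2 fold changes were 1.77 and 0.64. EPHA7 was also not called by DESeq2 with the replicate block (adjusted p = 0.0548). With at least 10 counts in every library EPHA7 was not tested. The call of EFNA2 was lost when any single library was left out, with 0.74 to 1.06. DESeq2 did not call EFNA2 with or without the replicate block.

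EPHA3 was the lower gene, with 3 and 12 counts in LGR5-high and 46 and 226 counts in LGR5-negative, and a log2 fold change of -4.33 (standard error 0.962, edgeR adjusted p = 0.0146). Without LGR5-high of pig 88R it was -3.64 and not called (adjusted p = 0.0697), and without LGR5-negative of pig 95R it was -2.84. The LGR5-negative library of pig 95R, where EPHA3 was highest, was also the one with the most melanocyte marker RNA, as given above for EPHA4. Immune markers moved the same way, with 5 of 7 lower and 1 higher in LGR5-high, 4 of the 5 having passed the filter only through LGR5-negative. Of all genes tested, 22.0% were lower and 22.7% higher. The immune list summed to 15.9 and 15.8 CPM in LGR5-high and to 93.9 and 139 CPM in LGR5-negative. Of its markers, CD3E was at 0 in both LGR5-high libraries. Of 8 fibroblast markers 6 were lower and 1 was higher, 2 of the 6 having passed only through LGR5-negative. Their list, in which POSTN held most of the level, summed to between 3087 and 3192 CPM in LGR5-high and between 5547 and 5559 CPM in LGR5-negative, with LUM at 0 in LGR5-high of pig 95R and TWIST2 at 0 in LGR5-high of pig 88R. The part of any of these cells in the values of EPHA3 was not tested. The other 4 genes did not reach the filter. EPHA5 and EPHA10 had at most 3 counts in any library and EPHA8 at most 6. EPHA6 had 10 and 7 counts in LGR5-high and 1 and 1 in LGR5-negative, without overlap. When all genes with at least 1 count were tested, EPHA6 had an unadjusted p-value of 0.0207 and an edgeR adjusted p of 0.0641, and the other 3 had adjusted p-values from 0.659 to 0.984.

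**Figure D3:**
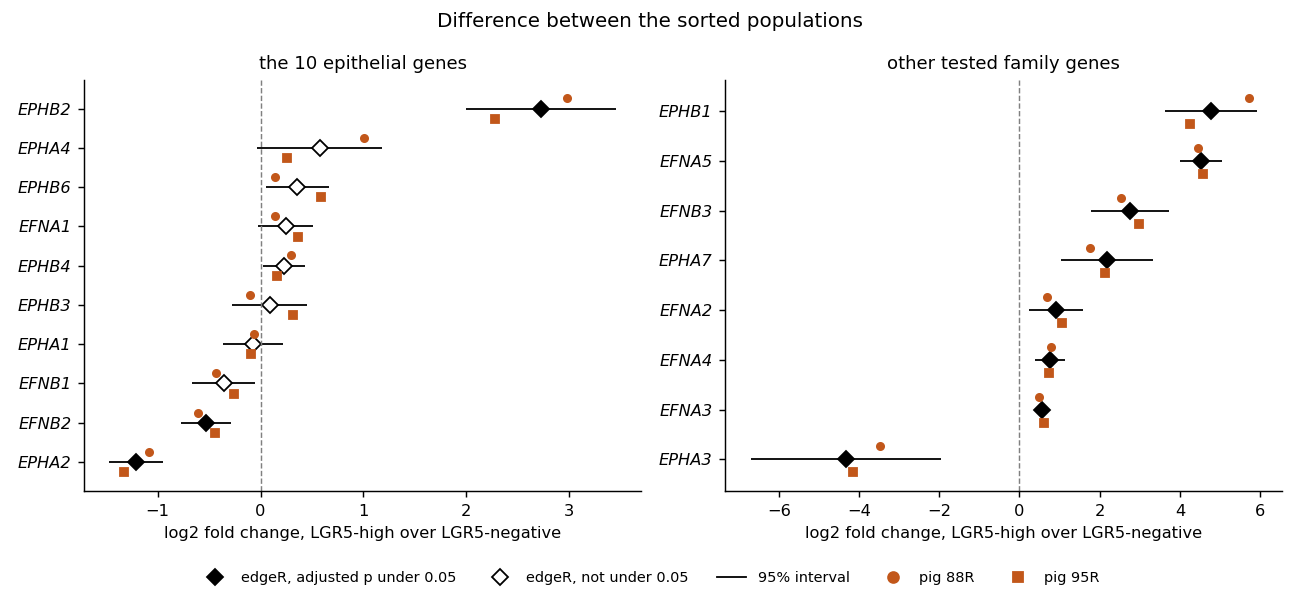
Log2 fold change, LGR5-high over LGR5-negative, with its 95% interval (edgeR) and the difference within each pig, for the 10 epithelial genes (left) and the other tested genes of the family (right), on x axes of different width. The 10 epithelial genes lie between -1.21 for EPHA2 and 2.72 for EPHB2, and the others between -4.33 for EPHA3 and 4.78 for EPHB1.

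The make-up of each branch of the family was read from the summed counts of its genes, in which a long transcript weighs more than a short one, and no test was made. EPHA2 held 58.3% and 59.6% of the counts of the 9 EphA receptor genes in LGR5-high and 79.5% and 79.2% in LGR5-negative. EPHA4 held 21.4% and 22.6% against 6.86% and 10.0%, and EPHA1 held 19.9% and 17.3% against 13.4% and 9.78%. The sum of the EphA receptors was 0.643 and 0.532 times as high in LGR5-high as in LGR5-negative, and EPHA2 made up most of it in each library. Among the 5 EphB receptor genes, EPHB6 held 40.9% and 43.1% against 44.6% and 44.0%, EPHB3 held 31.0% and 29.2% against 40.0% and 36.1%, and EPHB4 held between 13.5% and 18.6% in all 4 libraries. EPHB1 held 11.8% and 13.3% of the EphB counts in LGR5-high and 0.259% and 1.05% in LGR5-negative, so the lower share of EPHB3 in LGR5-high stood beside a level that overlapped between the populations. The share of EPHB2 was 1.11% and 0.775% against 0.158% and 0.231%.
In the ephrin-A branch EFNA1 held 33.3% and 28.6% of the counts in LGR5-high and 54.5% and 49.8% in LGR5-negative. Its own level was not lower in LGR5-high. EFNA5 held 31.8% and 38.8% against 2.61% and 3.65%, so the lower share of EFNA1 stood beside a larger share of EFNA5. In the ephrin-B branch the share of EFNB1 hardly moved. EFNB3 held 4.39% and 3.33% in LGR5-high against 0.549% and 0.328% in LGR5-negative. EFNB1 held between 67.1% and 68.4% in all 4 libraries, and EFNB2 held 27.4% and 29.0% against 31.0% and 32.5%. The sum of the ephrin-A ligands was 1.80 and 2.24 times as high in LGR5-high, that of the EphB receptors 1.20 and 1.53 times, and that of the ephrin-B ligands 0.741 and 0.827 times. With library size only, these ratios were 2.13 and 2.59, 1.42 and 1.77, and 0.874 and 0.956, and that of the EphA receptors was 0.758 and 0.615, so no direction flipped.

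**Figure D4:**
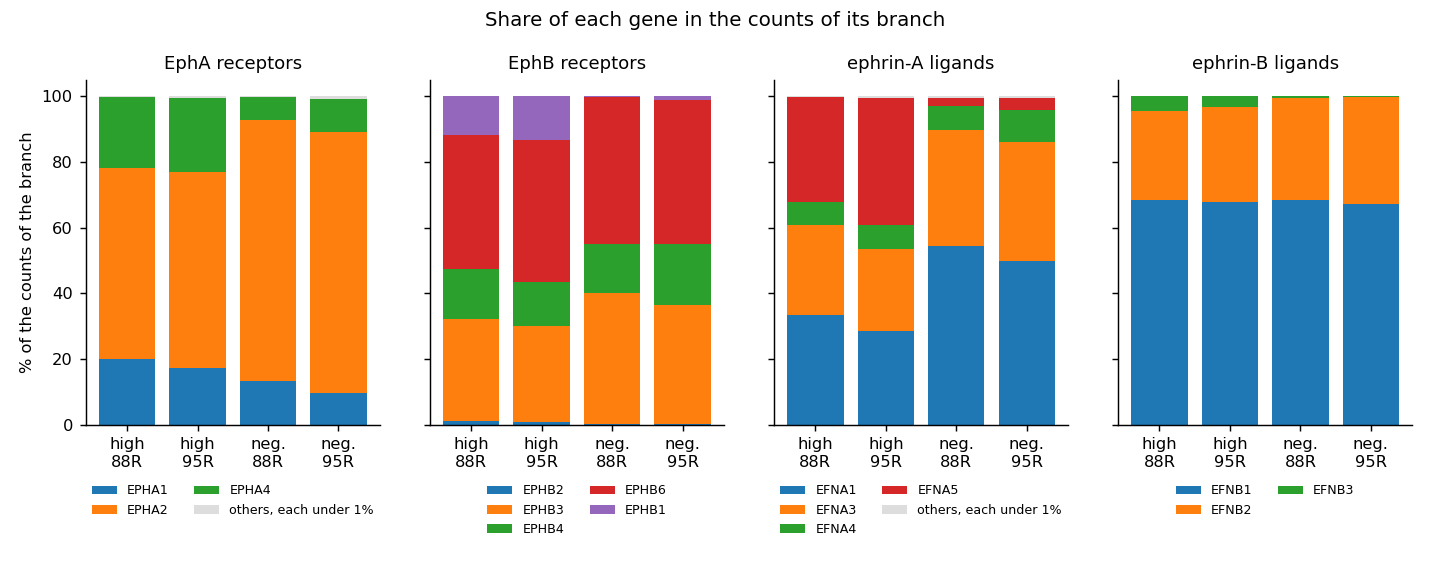
Share of each gene in the summed counts of its branch (EphA receptors, EphB receptors, ephrin-A ligands, ephrin-B ligands) in each library, with genes that stayed under 1% of their branch drawn together. EPHA2 takes 58.3% and 59.6% of the EphA counts in LGR5-high and 79.5% and 79.2% in LGR5-negative, and EFNB1 between 67.1% and 68.4% of the ephrin-B counts in all 4 libraries.

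Proteins that carry Eph and ephrin signals inside the cell were read from a list of 48 genes, which all passed the filter. Of these 16 were higher and 15 lower in LGR5-high, beside 22.7% and 22.0% of all genes, with a median log2 fold change of -0.01. Partners on the receptor side (31 genes), among them adaptors, kinases, exchange factors and chimaerins, had 12 higher and 10 lower. Partners of the ephrins (8 genes) had 2 and 2, and genes of cleavage and dephosphorylation (9 genes) had 2 and 3. The higher genes with the largest changes were KALRN, CHN2, CHN1, ARHGEF19 and CAV1, with log2 fold changes of 3.03, 2.18, 1.78, 1.60 and 1.55. KALRN and ARHGEF19 encode guanine nucleotide exchange factors, CHN1 and CHN2 encode chimaerins, which switch off Rac and are known downstream of EPHA4, and CAV1 encodes caveolin. CHN1, with 53 and 43 counts against 17 and 7, passed the filter only through LGR5-high, which favoured a difference. It lost its call under DESeq2 (adjusted p = 0.0530), under DESeq2 with the replicate block (0.0812), under Student's t-test (0.136) and without LGR5-high of pig 88R (1.64), LGR5-high of pig 95R (1.90) and LGR5-negative of pig 95R (1.24). The lower genes with the largest changes were VAV3, ARHGEF16, VAV2, PTPN13 and SHC1, with -1.91, -1.62, -1.34, -1.13 and -1.09. VAV2 and VAV3 are exchange factors for Rac known for Eph endocytosis, and ARHGEF16, like ARHGEF19 above, is a guanine nucleotide exchange factor. PTPN13 is a phosphatase that binds ephrin-B ligands, and SHC1 is an adaptor. With library size only, 20 of the 48 were higher and 8 lower, beside 5473 and 2328 of all 15980 genes. Student's t-test called 0 of the 48 higher and 4 lower, beside 544 and 502 of all genes. At an unadjusted p-value under 0.05, this t-test had 11 of the 48 higher and 8 lower.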

How the data were processed

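RNA was sequenced from FACS-sorted LGR5-high and LGR5-negative epidermal cells of 2 pigs after poly(A) selection. The values the authors deposited are raw counts for each gene symbol, with no normalization. The submitters' processing notes name Trimmomatic 0.36, STAR 2.5.2b and featureCounts of Subread 1.5.2. The genome build, annotation and strand setting are not given in the sources used here. All 29837 named genes, the 10 described genes included, matched a symbol of RefSeq's Sscrofa11.1 table, used only for names and neighbouring genes. The 1 entry without a name, 0.360% to 0.626% of each library, was left out.

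The comparison used edgeR 4.0.16 in R 4.3.3, with filterByExpr (minimum count 10, minimum total 15), TMM scaling and glmQLFTest with the population as the only term, 2-sided. This left 15980 genes. Genes with a Benjamini-Hochberg adjusted p-value under 0.05 were called. Standard errors come from the F statistic, and 95% intervals from its degrees of freedom. Differences within a pig used a prior count of 2. The floor of 3 counts takes in only counting error, because reads copied by PCR do not stand for separate molecules. An exact permutation test was not made, as 2 libraries against 2 cannot give a p-value under 0.05.

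The replicate block pairs libraries of the same animal, named by the number in the sample labels. Libraries of the same pig deviated together from their populations' means, with a correlation of 0.370. As alternatives, TMM was replaced by library size only, by upper quartile scaling or by the size factors of DESeq2, and the filter by at least 1 count in any library or at least 10 in every library. Further alternatives were the block, DESeq2 1.42.0 with and without the block, limma-voom (limma 3.58.1), Student's t-test (on log2 of CPM plus 1), and leaving out each library. The scripts were tested on simulated data. The genes and lists were chosen with earlier results of these data known. The named genes are the 10, the other family genes, the 5 called signalling genes with the largest change in each direction, and LGR5. Other markers were named after their values were seen. Plots were drawn with matplotlib 3.10.9.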

Additional observations from a re-analysis of the deposited data

How the results depend on the processing

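Of the 10 genes, 1 was higher and 2 were lower in the main test. The number higher was 4 with upper quartile scaling, 5 with library size only, 3 with at least 10 counts in every library, 5 with the replicate block, 3 with DESeq2 and 3 with DESeq2 and the replicate block, and between 1 and 3 when each library was left out. The number lower was between 1 and 3 when each library was left out. Student's t-test called 0 higher and 0 lower, beside 544 and 502 of all 15980 genes. Among all genes, 3632 were higher in the main test, 4292 with upper quartile scaling and 5473 with library size only. With at least 10 counts in every library 3089 of 14105 were higher. The replicate block gave 4562 higher, DESeq2 3329 and DESeq2 with the block 3002. EPHA1 turned from -0.07 to 0.021 with upper quartile scaling and 0.15 with library size only, and lay between -0.20 and 0.041 when each library was left out. EPHB3, at 0.09, lay between -0.12 and 0.32. Neither was called under any setting. Of the 140 values of the 10 genes under the alternatives, 107 kept direction and call, 24 gained a call, 4 lost it and 5 changed sign.

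Of the other family genes, with 7 higher and 1 lower, leaving out each library gave between 4 and 6 higher and between 0 and 1 lower. Student's t-test called 0 and 0, beside 544 and 502 of all genes, with 5 and 0 at an unadjusted p-value under 0.05. With at least 10 counts in every library 0 were lower, as EPHA3 was then not tested. The signalling genes, 16 higher and 15 lower, had 8 lower with library size only, beside 2328 of all 15980 genes. They had 0 higher and 4 lower with Student's t-test, beside 544 and 502 of all genes. The replicate block changed no call of the other family genes. The causes were not tested. With 2 pigs, the main test takes its spread from the libraries within each population and partly shares it between genes. The replicate block removes differences between the animals that both populations share. An effect that differs between pigs cannot be tested. Genes under 3 counts cannot be told from absent at this depth.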

Other observations

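EFNA1, EFNA3 and EFNA4 lie near each other in RefSeq's Sscrofa11.1 annotation, with 2 genes named only by a locus number between EFNA1 and EFNA3 and none between EFNA3 and EFNA4. Their log2 fold changes were 0.25, 0.56 and 0.76. EPHA2, lower in LGR5-high at -1.21, has as its next gene ARHGEF19, an exchange factor gene that was higher at 1.60. EPHA2 differed 1.01-fold between the pigs in LGR5-high, and 2.80% of all tested genes differed less there.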
